A study of Homo sapiens with 20 samples.

Results

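The MYC and PVT1 enhancer domain was taken as chr8:127.7-130.8 Mb of hg19, 3.1 Mb in length, and its members were the deposited H3K27ac peaks that overlap this interval. There were 1163 such peaks among the 458811 of the 4 H3K27ac libraries. Inside the domain, MYC was placed at chr8:128748315-128753680 and PVT1 at chr8:128.81-129.11 Mb. The peaks were chosen by these coordinates alone, and the domain itself was chosen with earlier results of these data known.

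The libraries came from G401, a cell line from a rhabdoid tumour, with the genotype SMARCB1(-/-). SMARCB1 belongs to the core of SWI/SNF, the family of complexes that move nucleosomes, and its loss defines rhabdoid tumours. Doxycycline induced GFP in the control group and SMARCB1 in the other, so both groups lacked the cells' own SMARCB1 and both carried an induced gene. Each group had 2 H3K27ac libraries, made by chromatin immunoprecipitation of enzymatically cut chromatin. All came from 1 cell line, and nothing in the labels says that replicates were separate cultures, so the p-values speak for these libraries only. Those from limma use a spread shared across the windows or regions of the whole genome, and not that of the tested one alone. The other 16 of the 20 samples (H3K4me3, H3K4me1, SMARCA4 and input) were not analysed here. The labels used here give no duration or dose of doxycycline.

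MYC encodes a transcription factor that drives growth and cell cycle genes. PVT1, the long noncoding RNA gene that follows it, holds enhancers within its body, and its promoter can compete with the MYC promoter for them. The wider interval is poor in coding genes and carries distal MYC enhancers that differ between tissues. H3K27ac, acetylation of histone H3 at a lysine of its tail, marks active promoters and enhancers. In RefSeq's gene order on GRCh38, PCAT1, PRNCR1, CASC19, CCAT1, CASC8, POU5F1B and CASC11 precede MYC, and LINC00824, LINC00976, LINC00977, CCDC26 and GSDMC follow PVT1. That order was used for names only, since positions on hg19 of genes other than MYC and PVT1 were not used here.

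The peak lists held 98251 and 79555 peaks in the GFP libraries and 145533 and 135472 in the SMARCB1 libraries. The caller's genome-wide background, recovered from the deposited values, was 1.82 and 3.74 fragments with GFP and 4.09 and 3.89 with SMARCB1. GFP replicate 1 stood apart with the lowest background. The longer lists moved with the induced gene, and the part of list length and depth in the results was not tested. The values below are therefore given for each library, and the whole list is set beside the domain.

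More of the domain was covered by H3K27ac peaks in both SMARCB1 libraries than in either GFP library. Peaks covered 256.2 and 280.2 kb with GFP and 452.3 and 435.3 kb with SMARCB1, which was 8.26% and 9.04% of the domain against 14.6% and 14.0%. The ratio of means was 1.65, against 1.30 for the whole lists. Peaks in the domain numbered 244 and 259 with GFP and 309 and 351 with SMARCB1, a ratio of 1.31 against 1.58 for the whole lists. Relative to the lists as a whole, the domain's covered length differed more between the groups and its number of peaks differed less. Per 1000 peaks of the list, the domain held 2.48 and 3.26 with GFP and 2.12 and 2.59 with SMARCB1, and these ranges overlapped. With equal numbers of strongest peaks in every list, 79555, the mean number of domain peaks was only 5 higher with SMARCB1 (exact permutation p = 1), against 78.5 with all peaks. The direction of the share turned when each list was cut to its strongest 79555 peaks (0.0628 higher with SMARCB1) or to -log10 q of at least 5 (0.533 higher), against 0.512 lower with all peaks. The exact two-sided permutation test gave p = 0.333 for covered length and for peak number and p = 0.667 for the share. With 2 libraries against 2 it cannot go below 0.333.

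At the median, peaks in the domain were wider with SMARCB1, and of its intervals this held in PVT1 alone. Downstream of PVT1 the medians were 423 and 413 bp with GFP against 391.5 and 404 bp with SMARCB1. Upstream of MYC they were 863 and 395.5 bp against 354.5 and 394.5 bp. The widest peak of the domain was wider with GFP, at 38193 and 39268 bp against 23016 and 21884 bp. The median peak spanned 401.5 bp in GFP replicate 1 and 412 bp in GFP replicate 2, against 524 and 518 bp in the SMARCB1 libraries. Over the whole lists the medians were 379 and 415 bp for GFP against 402 and 379 bp for SMARCB1. Peaks of at least 5 kb numbered 9 and 10 with GFP and 21 and 15 with SMARCB1. They were 3.69% and 3.86% of the domain's peaks with GFP against 6.8% and 4.27% with SMARCB1. Over the whole lists they were 2.53% and 3.22% against 1.94% and 1.37%. At the lower edge the nearest peaks inside the interval began 5.2 to 7.6 kb from it and the nearest outside ended 5.4 to 39.1 kb from it. At the upper edge these distances were 56.3 to 58.7 kb inside and 35.1 to 98.7 kb outside.

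**Figure D1:**
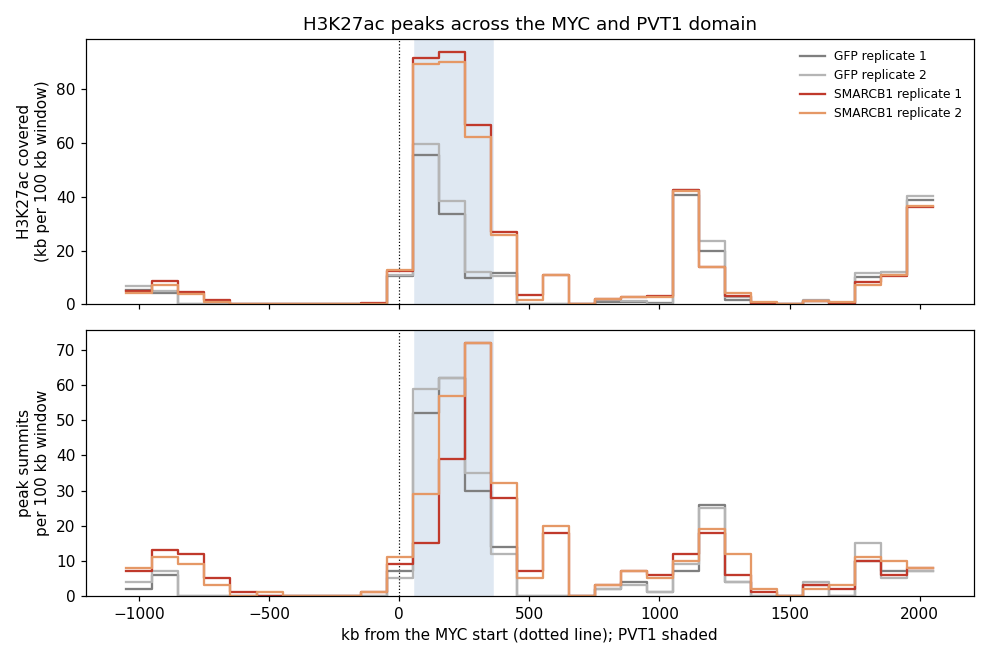
Kilobases covered by H3K27ac peaks (upper panel) and number of peak summits (lower panel) in each 100 kb window, against the distance in kb from the MYC start, with 1 line for each library and PVT1 shaded. The SMARCB1 lines rise to 94.0 and 90.0 kb inside PVT1, while the lines of all 4 libraries lie close together near 1100 kb, where between 40.5 and 42.6 kb of the window was covered.

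PVT1 was the interval in which the groups stood farthest apart in covered length. Peaks covered 98.7 and 109.2 kb of its 300 kb with GFP and 256.7 and 245.1 kb with SMARCB1, or 32.9% and 36.4% against 85.6% and 81.7%. The ratio was 2.41 (exact permutation p = 0.333), and in the rest of the domain it was 1.17, from 157.5 and 171 kb to 195.6 and 190.2 kb. The number of summits in PVT1 was similar, with 150 and 159 in the GFP libraries and 132 and 165 in the SMARCB1 libraries. Their width differed more, with a median of 385.5 and 412 bp for GFP against 837.5 and 826 bp for SMARCB1. Where the GFP libraries had narrow peaks with gaps between them, the SMARCB1 libraries had broader peaks and fewer gaps. With -log10 q of at least 5, the covered share of PVT1 was 25% and 27% against 80% and 76.3%, and with 79555 peaks in every list it was 29.6% and 36.4% against 80.9% and 77.0%.

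**Figure D2:**
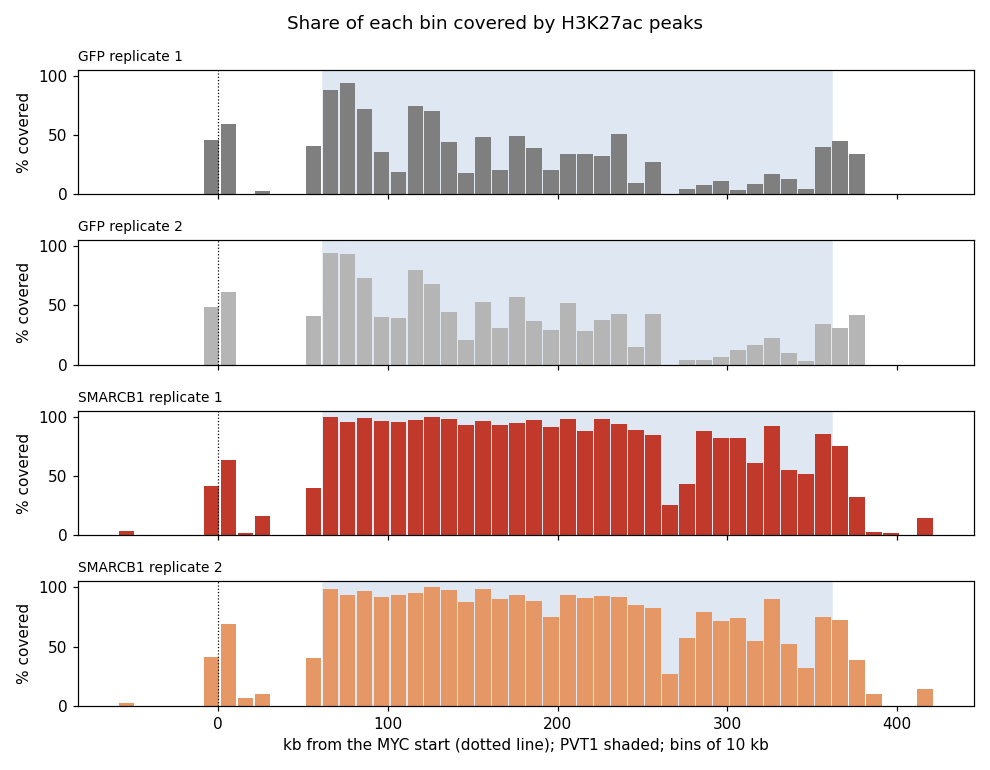
Percent of each 10 kb bin covered by H3K27ac peaks, with 1 panel for each library, from just before MYC to just after PVT1, with PVT1 shaded. In the GFP libraries 2 of the 30 bins of PVT1 were at least 80% covered in each, all near its start, against 25 and 20 bins in the SMARCB1 libraries.

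The covered stretch in PVT1 was nearly continuous with SMARCB1. Peaks no more than 1 kb apart were joined into blocks, and the longest block over PVT1 measured 30.7 and 36.4 kb with GFP and 203.8 and 202.8 kb with SMARCB1. All 4 blocks began between positions 128805912 and 128805989, just before PVT1, and the SMARCB1 blocks ended at 129009801 and 129008766. They joined 61 and 91 peaks, against 14 and 19 in the GFP blocks. At this joining distance it was the longest block of the genome in each SMARCB1 list, ranking 1 of 48284 and 1 of 46280. The GFP blocks ranked 344 and 242 in their lists. Ranks from lists of different lengths do not measure a change.

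The length and rank of the block depended on the joining distance and on the weakest peaks. Without joining, the widest peak over PVT1 was 8.2 kb in both GFP libraries and 18.8 kb in both SMARCB1 libraries. Joined within 500 bp, the blocks measured 19.0 and 27.9 kb against 109.4 and 59.9 kb, and within 2000 bp 40.6 and 40.7 kb against 279.6 and 202.8 kb. With -log10 q of at least 5 the blocks of SMARCB1 replicates 1 and 2 shortened to 87.5 and 120.7 kb and ranked 4 and 2, beside 30.7 and 30.8 kb with GFP. With equal numbers of strongest peaks they measured 87.5 and 201.7 kb and ranked 4 and 1. In every one of these settings both SMARCB1 blocks were longer than both GFP blocks.

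**Figure D3:**
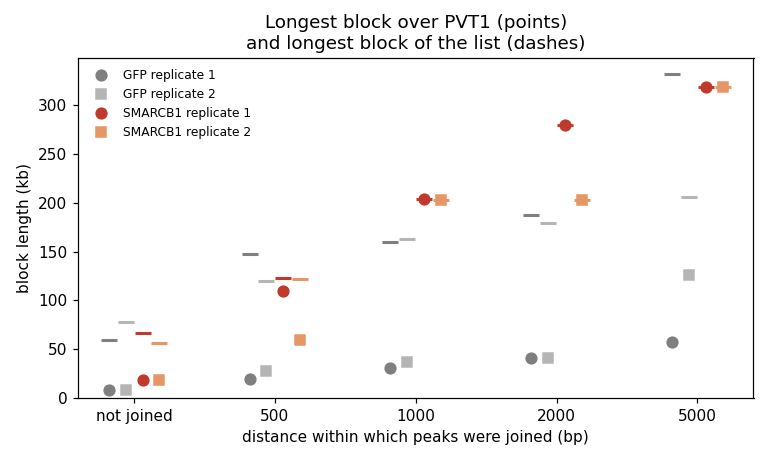
Length in kb of the longest block over PVT1 (points) and of the longest block anywhere in the same list (dashes), for each library, against the distance within which peaks were joined. At 1000 and 2000 bp the points of both SMARCB1 libraries sit on their dashes (203.8 and 202.8 kb at 1000 bp), while the GFP points stay at 30.7 to 40.7 kb.

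H3K27ac at the MYC start was present in every library and was not called different. MYC was covered over 98.4% of its length in GFP replicate 1 and 100% in the other 3 libraries. The peak over its start was 7005 and 9374 bp wide for GFP against 8760 and 8682 bp for SMARCB1. Its deposited fold enrichment, the summit over the caller's background, was 16.3 and 14.4 with GFP and 7.92 and 7.26 with SMARCB1. The fragments at its summit, recovered from the deposited fold and p, were 83 and 87 with GFP and 94.1 and 82 with SMARCB1. The background at the same summit was 4.15 and 5.11 fragments against 11 and 10.4. The lower fold thus stood beside a higher background, with fragments that overlapped between groups. SMARCB1 replicate 1 has fragments that are not whole because its list was solved with a scale of 0.8551, fitted as the value of smallest misfit.

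**Figure D4:**
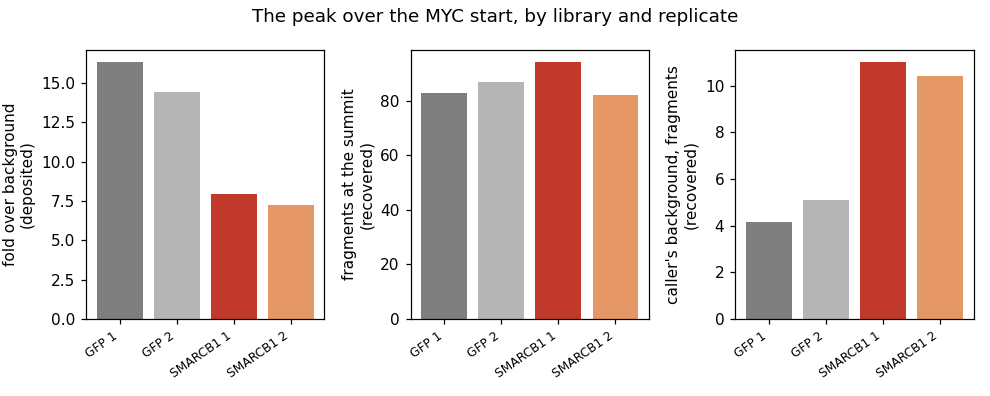
Fold enrichment, recovered summit fragments and recovered background of the peak over the MYC start, with 1 bar for each library and axes from 0. Fold was 16.3 and 14.4 with GFP and 7.92 and 7.26 with SMARCB1, fragments lay between 82 and 94.1 in all 4 libraries, and the background was 4.15 and 5.11 against 11 and 10.4.

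Summit height was then compared at the regions that had a peak in all 4 libraries, 61 of the 305 merged regions of the domain. For each region, the highest summit fragments of each library were compared with limma over all 27997 such regions of the genome, on the log2 scale and relative to the median region of each library. In the domain 34 of the 61 (55.7%) had more fragments with SMARCB1 and 4 (6.56%) had fewer, at a Benjamini-Hochberg adjusted p under 0.05, against 11.8% more and 11.8% fewer over the genome. The median difference was 0.605 in the domain and -0.04 over the genome. Without setting libraries relative to their median region, the counts were 26 more and 0 fewer (2 fewer by limma at an unadjusted p under 0.05). Over the genome they were then 1947 more and 440 fewer of 27997, with a median of 0.093. With 1 library left out, the domain's median difference was 0.435 without GFP replicate 1 and 0.657 without GFP replicate 2. It was 0.712 without SMARCB1 replicate 1 and 0.519 without SMARCB1 replicate 2. The genome's medians in these fits were -0.028, -0.046, -0.019 and -0.049. Each of these fits called fewer regions with more fragments than the full fit did, in the domain and over the genome.

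Of the 34 regions with more fragments, 26 lay in PVT1, out of 33 tested there (78.8%), and none of the 33 had fewer. The median log2 difference of the 33 was 0.8 with all libraries. It was 0.71 without GFP replicate 1, 0.88 without GFP replicate 2, 0.85 without SMARCB1 replicate 1 and 0.73 without SMARCB1 replicate 2. Each of these fits called fewer of the 33 than the full fit did, as it did over the genome. Both SMARCB1 libraries were above both GFP libraries in 32 of the 33, against 31.2% of regions over the genome. The region of PVT1 with the smallest adjusted p, chr8:128915922-128927388, had 16 and 24 fragments with GFP and 52.2 and 44 with SMARCB1 (log2 difference 1.16 ± 0.18 SE, limma with Benjamini-Hochberg adjusted p = 3.15e-08). At chr8:129099277-129105325, near the end of PVT1, there were 20 and 25 fragments against 52.2 and 52 (1.09 ± 0.17, limma adjusted p = 3.91e-08). The groups did not overlap in either region.

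The 2 regions of PVT1 with the most fragments in the GFP libraries were not called. The region at its start, chr8:128805912-128825452, had 83 and 93 fragments with GFP and 99.2 and 81 with SMARCB1 (-0.10 ± 0.14, limma adjusted p = 0.609), and was the 1 region of 33 whose groups overlapped. At chr8:128862203-128881014 there were 65 and 70 fragments with GFP and 93.2 and 75 with SMARCB1 (0.18 ± 0.14, adjusted p = 0.361). The other regions of PVT1 had 9 to 30 fragments in the GFP replicate 1 library. Among the 5 PVT1 regions of highest fold, chr8:128836980-128847269 went from 24 and 27 to 63.3 and 39 fragments (0.83 ± 0.17, limma adjusted p = 2.94e-05). The region chr8:128896626-128914274 went from 29 and 32 to 61.6 and 61 (0.88 ± 0.15, limma adjusted p = 1.24e-06). Fragments thus rose at regions in the body of PVT1. The median fold of PVT1 peaks overlapped between groups, at 4.22 and 3.5 with GFP and 4.15 and 4.13 with SMARCB1. At chr8:128915922-128927388 fold was 6.02 and 5.02 against 10.3 and 6.96, and background 1.82 and 4.26 fragments against 6 and 6.64. The region chr8:128945312-128963130, also called (0.71 ± 0.19), had fold 6.01 and 4.81 against 5.36 and 5.57. Its background was 2.16 and 4.61 against 7 and 7.59. The MYC start (-0.09 ± 0.14, limma adjusted p = 0.683) and the PVT1 start were not called. The difference between the body of PVT1 and these starts was not tested. Both of these small differences turned positive without the median setting, at 0.05 and 0.03.

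**Figure D5:**
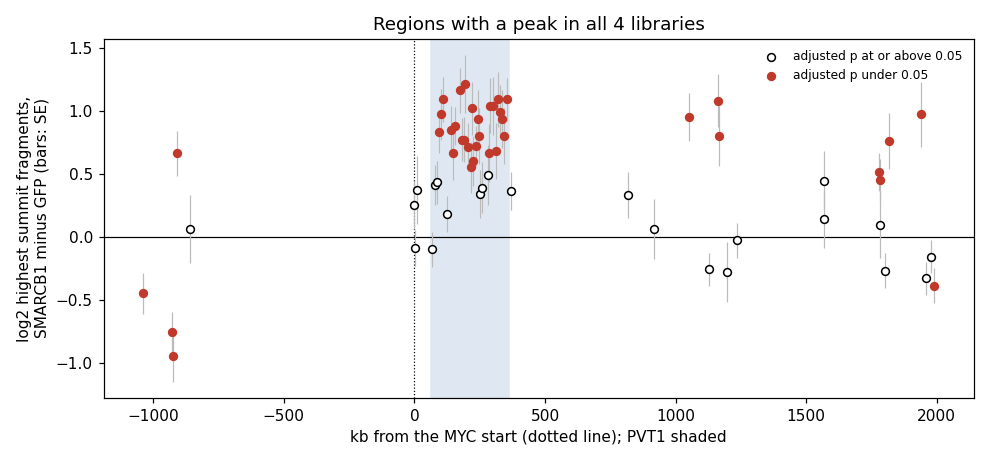
Log2 difference in highest summit fragments, SMARCB1 minus GFP, with SE bars, for each of the 61 regions with a peak in all 4 libraries, against the distance in kb from the MYC start. Filled points passed an adjusted p of 0.05: 26 of the 33 points in the shaded PVT1 interval are filled and positive, and the points at the MYC start and PVT1 start are open and near 0.

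Outside PVT1, 8 of the 28 regions had more fragments and all 4 regions with fewer lay in the domain's outer intervals. The fewer-fragment regions were chr8:127706935-127712996 (-0.45 ± 0.16), chr8:127820627-127822236 (-0.76 ± 0.16), chr8:127822360-127824122 (-0.95 ± 0.20) and chr8:130732942-130741648 (-0.39 ± 0.14), named because they were so few. None of the 4 was called without the median setting. The 2 widest regions of the domain lay downstream of PVT1 and were not called. At chr8:129857006-129898633, 41.63 kb wide, there were 108 and 111 fragments with GFP and 104 and 96 with SMARCB1 (-0.26 ± 0.13, limma adjusted p = 0.145). At chr8:130690008-130722937 there were 120 and 117 against 104 and 102 (-0.33 ± 0.13, limma adjusted p = 0.057). Both were lower in each SMARCB1 library, and both passed, at 0.0446 and 0.0355, when GFP replicate 2 was left out. The highest fold of the domain lay in the second of them in the GFP lists, at 42.0 and 22.4, and in the first of them in the SMARCB1 lists, at 20.3 and 19.9.

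In windows of 100 kb, the covered length was compared with limma on log2(covered bp + 500) over the 10653 windows of the genome with cover in at least 2 libraries. Of the 31 windows of the domain 24 were tested, 14 were higher with SMARCB1 and 1 was lower at a Benjamini-Hochberg adjusted p under 0.05, against 35.9% of windows higher and 7.79% lower over the genome. However, 7 of the 24 had no cover in either GFP library, so they entered the test through SMARCB1 alone, and all 7 were among the 14. Of the 17 windows covered in both groups, 7 were higher and 1 was lower when only such windows were tested, against 28.6% and 6.48% over the genome. Over these windows the median log2 difference was 0.621 in the domain and 0.216 over the genome, and over all tested windows the genome median was 0.355. With each library centred on its median window the genome's median moved to -0.246, and the share of higher among called windows fell from 82.2% to 39.7%. Of 10653 windows, 2866 were then higher and 4357 lower, and of the domain's 24, 9 were higher and 8 lower. With 79555 peaks in every list the share of higher among called windows was 69.6%. Of 10112 windows, 2686 were then higher and 1173 lower, and of the domain's 23, 11 were higher and 2 lower. Leaving out SMARCB1 replicate 1 or 2 left those 17 windows tested. Their median difference was then 0.591 and 0.552, against 0.0658 and 0.338 over the genome.

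The windows over PVT1 were called higher with all peaks, and with libraries centred they were still called higher, with 1 exception. The part of list length and depth in them was not tested. The window from 128.9 Mb was covered over 33.6 and 38.3 kb with GFP and 94.0 and 90.0 kb with SMARCB1 (1.35 ± 0.09 SE, limma adjusted p = 0.00131). It held 62 summits in both GFP libraries and 39 and 57 in the SMARCB1 libraries. The window from 129.0 Mb was covered over 9.7 and 12.1 kb against 66.6 and 62.1 kb (2.51 ± 0.14, limma adjusted p = 0.000971), with 30 and 35 summits against 72 and 72. In the window from 128.8 Mb, which includes the PVT1 start, cover was 55.4 and 59.5 kb against 91.6 and 89.5 kb (0.65 ± 0.07, limma adjusted p = 0.00341), while summits went from 52 and 59 to 15 and 29. This window was the exception, since its difference was 0.05 with libraries centred (adjusted p = 0.779). Centred, those from 128.9 and 129.0 Mb kept differences of 0.75 and 1.91, with limma adjusted p = 0.00128 and 6.12e-07. The window from 129.1 Mb, which holds the end of PVT1, had 11.8 and 10.7 kb covered with GFP and 27 and 25.7 kb with SMARCB1 (1.19 ± 0.12, limma adjusted p = 0.00322). Centred, its difference was 0.59 (limma adjusted p = 0.00333).

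The window that holds MYC, from 128.7 Mb, had 10.7 and 11 kb covered with GFP and 12.4 and 12.8 kb with SMARCB1 (0.20 ± 0.13, limma adjusted p = 0.265). With libraries centred its difference turned to -0.40 and was called (limma adjusted p = 0.0461). Ranked by cover among the 11345 windows of each list, the windows from 128.8 and 128.9 Mb stood at 189 and 653 in GFP replicate 1, 143 and 469 in GFP replicate 2, 5 and 4 in SMARCB1 replicate 1, and 6 and 5 in SMARCB1 replicate 2. Over the genome, cover of at least 80 kb was found in 14 windows in all 4 libraries, and in 5 windows in the SMARCB1 libraries but not in those with GFP.

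Stretches without any GFP peak held peaks with SMARCB1, as they did over the genome. Of the 11345 genome windows covered in at least 1 library, 19% and 24% had no summit with GFP and 5.25% and 9.4% with SMARCB1. In the domain 14 of 31 windows had no summit in each GFP library and 6 in each SMARCB1 library. Only 26 of these 31 were covered in at least 1 library, so the domain's counts and the genome's shares have unlike bases. The window from 129.3 Mb, which begins 551.7 kb beyond the MYC start, had 0 kb covered in both GFP libraries and 11.1 and 10.9 kb with SMARCB1, with 18 and 20 summits. The window from 127.9 Mb, upstream of MYC, had 0 kb with GFP and 4.5 and 4.0 kb with SMARCB1. Both are given as values with no test, since only their SMARCB1 cover let them into the fit and neither could be fitted with a SMARCB1 library left out. The window from 129.7 Mb had 0.4 and 0.2 kb against 3.1 and 2.9 kb (2.17 ± 0.19, limma adjusted p = 0.00208), a difference that was 1.13 with 2000 bp added in place of 500 bp. The only lower window, from 129.9 Mb, had 19.8 and 23.5 kb with GFP and 14.0 and 13.8 kb with SMARCB1 (-0.62 ± 0.14, limma adjusted p = 0.0267), and it was not called when any 1 library was left out (adjusted p 0.0718 to 0.345).

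Upstream of MYC, the longest stretch without a peak was shorter in both SMARCB1 libraries. It measured 855.8 and 854.4 kb with GFP and 595.9 and 460.7 kb with SMARCB1. Summits in the 1048.3 kb upstream interval numbered 9 and 14 with GFP and 40 and 34 with SMARCB1, covering 1.19% and 1.44% of it against 2.21% and 1.87%. Windows from 127.7 to 128 Mb held most of these summits, and no library had a peak in chr8:128235729-128696472, a stretch of 460.7 kb that ends before MYC. Between MYC and PVT1, cover was 6.6 and 6.5 kb with GFP and 8.5 and 9.0 kb with SMARCB1. Downstream of PVT1 it was 133.1 and 144.0 kb against 158.5 and 156.1 kb, with 78 and 83 summits against 128 and 141.

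Merging the peaks that overlap between libraries gave 305 regions. A gained region has a peak in each SMARCB1 library and in no GFP library, and a lost region the reverse. There were 82 gained regions (26.9%) and 11 lost (3.61%). Over the genome 17.5% of merged regions were gained and 3.94% lost. A peak in 1 library only was found in 131 regions. Of the gained regions 39 lay downstream of PVT1, 27 in PVT1, 12 upstream of MYC and 4 between MYC and PVT1. These intervals held 156, 95, 42 and 11 merged regions, so the gained share was 25%, 28.4%, 28.6% and 36.4%. All 11 lost regions lay downstream of PVT1, 7.05% of the 156 there. With 79555 peaks in every list there were 42 gained regions, and with peaks within 1 kb joined there were 27 gained and 2 lost. The genome's shares above belong to all peaks, so these counts cannot be set against the genome.

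The strongest gained regions lay downstream of PVT1 and far from any GFP peak. The first of them, chr8:129333765-129336738, reached a fold of 11.4 and 10.4 with 57.3 and 50 fragments in the SMARCB1 libraries, at a distance of 208501 bp from any GFP peak. Beside it, chr8:129336862-129339362 reached 8.76 and 9.01. The region chr8:129180343-129182065, beyond the end of PVT1, reached 7.63 and 8.50 with 75.3 and 72 fragments, 55079 bp from a GFP peak. The region chr8:129188041-129190757 reached 7.84 and 7.02, and chr8:130089011-130090062 reached 7.48 and 8.14. Over the 82 regions the nearest GFP peak was a median of 8339 bp away, 23 were within 1 kb of one and 37 were beyond 10 kb. By rule a gained region overlaps no GFP peak, and PVT1 held 150 and 159 GFP summits. Strong SMARCB1 peaks there could therefore merge into regions found in every library. One such region was chr8:128836980-128847269, with a fold of 12.6 and 7.85 in the SMARCB1 libraries.

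The strongest lost regions were of lower fold than the strongest gained ones. At the median, however, the lower of a region's fold values was 3.8 for lost and 3.29 for gained regions. These folds come from libraries of different background. Lost regions were also nearer to peaks of the other group, whose lists were longer. The lost regions are described first. Their median width was 592 bp, against 605 bp for gained regions, and the nearest SMARCB1 peak lay a median of 1076 bp away. The strongest, chr8:129902135-129902519, had a fold of 6.73 and 4.64 in the GFP libraries and was 291 bp from a SMARCB1 peak. The next were chr8:129975608-129976199 (5.31 and 4.43), chr8:130598803-130599416 (6.43 and 4.13), chr8:129942577-129942980 (4.50 and 4.13) and chr8:130596535-130597678 (5.34 and 4.05). Of the 11, 5 were within 1 kb of a SMARCB1 peak and 0 were beyond 10 kb. The highest lower fold among them was 4.64, against 10.4 among the gained regions.

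Counted in base pairs, which does not depend on how peaks merge, 141.2 kb of the domain was covered in both SMARCB1 libraries and neither GFP library, and 15.5 kb the reverse. These were 26.6% and 2.93% of the 530.2 kb covered in any library, against 14.9% and 5.92% over the genome. PVT1 held 104.7 kb of the gained length and 0.5 kb of the lost length. Downstream of PVT1 there were 27.5 kb gained and 12.4 kb lost. Of the length lost from the domain, PVT1 thus held little, and of the length gained it held the most of any interval. Without GFP replicate 1 the lost length was 32 kb.

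The super-enhancer marks in the authors' ROSE tables did not follow the peak cover in PVT1. ROSE stitches peaks that lie close together, ranks the stitched regions by signal and marks the highest. The GFP tables each marked 1 region of the domain, chr8:129069185-129123714 (54.5 kb) and chr8:129028273-129125263 (97.0 kb), and both lay over the end of PVT1. The SMARCB1 tables marked 4 and 1 regions of the domain and none over PVT1. The marked share of the domain's table regions was 0.735% and 0.694% with GFP and 2.33% and 0.488% with SMARCB1, below the 3.37%, 3.35%, 5.55% and 5.02% of the whole tables, which marked 910, 649, 2003 and 1521 regions. In SMARCB1 replicate 1 the marked regions began at 127945599, 129313304, 129854565 and 130685990, and in SMARCB1 replicate 2 at 129856198. The region over MYC was marked in no table. The difference in marked regions, 1.5, gave p = 1 in the exact permutation test.

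Over PVT1 the tables held 115 and 125 regions with GFP and 127 and 160 with SMARCB1, and 98.3% and 99.2% against 100% and 100% of them were a single peak. Over all regions that these files list, 70.1% to 76.9% were a single peak. The longest table region over PVT1 was 18.8 kb in both SMARCB1 tables, inside the blocks of 203.8 and 202.8 kb found by joining the same peaks. The tables gave 1 signal to all regions that shared an identifier, so a mark is not a measurement of the region alone. The part of this shared signal and of the stitching in the marks over PVT1 was not tested.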

How the data were processed

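H3K27ac peak lists of 4 libraries (2 GFP, 2 SMARCB1) and 4 tables of stitched regions were used. The labels' induced gene and antibody target set the groups. The series is described as MNase ChIP, and the labels name an enzymatic ChIP kit. BWA 0.7.12-r1039, SAMtools and bedtools are named in the submitters' processing notes. MACS2, hg19 and a filter are named in the deposited file tags and peak names. The version of the caller, the control it used and what the filter did are not given in the sources used here. The deposited fold enrichment is a ratio that the authors computed for each peak, and the deposited -log10 p and -log10 q are also the authors' values. The deposited ROSE signal and the score column were not used as measurements. Stitched tables were matched to libraries through the gene and number in their names, and 100% of region starts in each lay in the matched peak list. A further 4 columns of per-sample values matched no sample and were not used.

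Depth is not in the files. Summit fragments and background were solved from the deposited fold and -log10 p under the caller's formulas, with 100% of peaks recovered within 0.001 of -log10 p. The recovery and the limma fit were tested on simulated data. The lists hold peaks only, so a stretch without a peak is below the caller's threshold and not at 0.

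Overlap was counted from 1 bp. Means were compared by exact two-sided permutation over libraries. Windows and regions were tested with limma 3.58.1 (R 4.3.3) using a mean-variance trend over the whole genome, with Benjamini-Hochberg adjustment. Other steps used Python 3.11.15, numpy 2.4.6, pandas 2.3.3 and scipy 1.17.1. Named regions were those of highest fold over MYC and PVT1, the 5 gained and 5 lost of highest lower fold, the 5 widest found in every library, the 5 windows of smallest p and the 3 with most peaks in each group. The domain, the lists and the rules were chosen with earlier results of these data known. Base-pair counts, blocks, fragment tests, joining distances and the test of windows covered in both groups were added after seeing the data. Genes of the MYC network were not analysed here, as no hg19 gene positions were used.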

Additional observations from a re-analysis of the deposited data

How the results depend on the processing

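The sign of the difference held in every setting run for peak number, covered length and the longest PVT1 block. The peak number difference was however 5 (exact permutation p = 1) with equal peak numbers, against 78.5. Peaks per 1000 of the list turned positive with -log10 q of at least 5 (0.533) and with equal peak numbers (0.0628). Gained regions fell to 42 with equal peak numbers and 27 with peaks joined within 1 kb. Lost regions were 78 with 50% reciprocal overlap and 2 with joining. No share over the genome is given for these gained and lost counts. Lower windows were 0 at the stricter q (1 by limma at an unadjusted p under 0.05) and 2 with equal peak numbers. Over the genome these were 888 of 9812 and 1173 of 10112. Centring gave 9 higher and 8 lower, with the MYC window at -0.40, against 2866 higher and 4357 lower of 10653 over the genome. Windows covered in both groups, tested alone, gave 7 higher. Fragment tests without centring gave 0 regions with fewer, against 440 of 27997 over the genome, and moved the MYC and PVT1 starts to 0.05 and 0.03. Leaving out 1 library at a time, the differences ranged from 57.5 to 99.5 peaks, 164 to 188 kb covered, -0.899 to -0.126 per 1000, 0 to 3 marks and 167 to 173 kb for the block. Counts ranged from 89 to 173 gained and 13 to 38 lost regions, 166 to 185 kb gained and 20.7 to 32 kb lost, 6 to 13 higher and 0 to 0 lower windows (0 to 2 at an unadjusted p under 0.05 by limma), and 8 to 30 regions with more and 2 to 4 with fewer fragments. Fewer libraries loosen the gained and lost rules by construction, and the other causes were not tested. Replicates share a number that the labels tie to nothing. Their deviations correlated at 0.21 over windows and 0.13 over common regions. With the number as a replicate block 16 windows were higher and 2 lower, against 4965 and 1257 of 10653 over the genome. The paired sign-flip test cannot go below 0.5 with 2 pairs.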
